A study of Homo sapiens with 4 samples.

Results

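The genes of serine, one-carbon and asparagine synthesis were followed through an RNA immunoprecipitation of NSUN2 in PANC-1 cells. The 9 members, taken by symbol from a table of 24483 genes, were PHGDH, PSAT1, PSPH, SHMT1, SHMT2, MTHFD1, MTHFD2, MTHFD1L and ASNS, and each had 1 row. Their rows in the peak lists, 52 in lactate cells and 102 in vehicle cells, were taken with them. PANC-1 is an established human pancreatic ductal adenocarcinoma line, labelled wild-type, and NSUN2 is a methyltransferase that places 5-methylcytosine on RNA. There were 4 libraries in 4 groups, namely lactate IP, lactate input, vehicle IP and vehicle input. Lactate cells had 30 mM sodium lactate for 24 h, and vehicle cells had water for as long. IP libraries hold RNA recovered with an antibody against NSUN2 in a 4 h incubation, and input libraries hold RNA taken before that step. Each group was 1 library of 1 line, so no value has a replicate error, no test was run and no p-value is given for any difference between groups. The 95% intervals below therefore cover counting error only. The library kit adds no molecular identifiers to mark copies made in amplification, so the intervals may be too narrow even for that. No library with an unspecific antibody was analysed here, so recovery of RNA by NSUN2 and by the beads cannot be told apart.

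Serine is made from a glycolytic intermediate in 3 steps. PHGDH oxidises 3-phosphoglycerate, PSAT1 transfers the amino group and PSPH removes the phosphate. The serine hydroxymethyltransferases SHMT1 in the cytosol and SHMT2 in mitochondria then move a carbon from serine to tetrahydrofolate, giving glycine. MTHFD2 and MTHFD1L carry that carbon through the mitochondrial folate pathway to formate, and MTHFD1 takes up formate in the cytosol for nucleotide synthesis. ASNS makes asparagine from aspartate with the amide of glutamine. In many cells the transcription factor ATF4 raises transcription of PHGDH, PSAT1, PSPH, SHMT2, MTHFD2, MTHFD1L and ASNS when amino acids are short.

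Promoter windows from RefSeq (GRCh38.p14), running from 250 bases before to 50 bases after a gene start, are shown for the response element and for the one member peak that lay over a gene start. The table held windows for 7 of the 9 members, and PSPH and SHMT2 are named only. The sequence searched was TGATGNAA, the C/EBP-ATF response element as in the ASNS promoter, on both strands, counting any overlap. It was present in 2 of the 7 members, ASNS and MTHFD1L (28.57%), and in 1217 of 27305 genes with a window (4.457%). The ASNS match was set by the choice of sequence, so these shares do not measure an enrichment at the members. The 7 members had 11 windows, and the 27305 genes had 35116. Capitals mark the match in the first pair of windows. In the ASNS window shown it starts 68 bases before the annotated start, and in the MTHFD1L window shown 129 bases before it. RefSeq has several starts for both genes. The same MTHFD1L match lies 90 bases before another start and 24 bases after a further one, and 1 window of each gene had no match. No peak listed under the same gene overlapped either window shown, and peaks listed under other genes were not checked. A match is a description of the letters only. In the PSAT1 window, capitals mark the 162 bases inside the vehicle IP peak that lies over the gene start.
ASNS, chr7:97872359-97872658, minus strand: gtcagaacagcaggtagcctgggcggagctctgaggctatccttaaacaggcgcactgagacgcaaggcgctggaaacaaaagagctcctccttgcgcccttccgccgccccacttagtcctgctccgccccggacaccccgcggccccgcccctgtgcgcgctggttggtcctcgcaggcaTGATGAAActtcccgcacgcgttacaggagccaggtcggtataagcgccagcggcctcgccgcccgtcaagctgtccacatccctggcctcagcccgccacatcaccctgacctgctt
MTHFD1L, chr6:150866236-150866535, plus strand: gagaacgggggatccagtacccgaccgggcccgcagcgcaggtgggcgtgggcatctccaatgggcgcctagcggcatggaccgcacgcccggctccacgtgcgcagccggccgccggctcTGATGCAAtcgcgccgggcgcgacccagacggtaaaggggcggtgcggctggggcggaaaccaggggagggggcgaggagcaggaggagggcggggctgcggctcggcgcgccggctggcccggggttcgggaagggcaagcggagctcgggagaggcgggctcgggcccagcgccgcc
PSAT1, chr9:78296875-78297174, plus strand: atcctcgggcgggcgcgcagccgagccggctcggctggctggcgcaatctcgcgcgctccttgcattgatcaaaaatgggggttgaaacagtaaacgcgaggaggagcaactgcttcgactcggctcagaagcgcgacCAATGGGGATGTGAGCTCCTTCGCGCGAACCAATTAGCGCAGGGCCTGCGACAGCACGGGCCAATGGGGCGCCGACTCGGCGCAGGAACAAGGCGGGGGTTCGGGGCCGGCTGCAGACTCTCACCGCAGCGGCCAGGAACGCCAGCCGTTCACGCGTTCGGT

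Gene levels are in FPKM, which divides a gene's fragments by its length in kilobases and by the library's fragments in units of 1000000. The libraries held 15189967 reads (lactate IP), 11175432 (lactate input), 13620414 (vehicle IP) and 17626197 (vehicle input), as recovered from the deposited values. Genes of the nuclear genome had 13.9% of the reads in the lactate IP and 20.9% in the lactate input, against 30.3% in the vehicle IP and 31.3% in the vehicle input. The mitochondrial rRNA MT-RNR2 alone had 83.7% and 55.1% in the lactate pair, against 68.0% and 41.0% in the vehicle pair. FPKM are scaled to all reads, so every nuclear gene's level includes this difference, whose part in the values below was not separated except by the rescaling in the closing section. The epithelial keratin KRT18 had 93.5 and 45.5 FPKM in the lactate IP and input, against 292 and 116 FPKM in the vehicle IP and input. KRT8 and the ductal keratin KRT19 were likewise higher in IP than in input, and KRT19 lay between 1.61 and 11.3 FPKM. The epithelial adhesion gene EPCAM was lower in IP, with 0.108 and 1.18 FPKM in the lactate IP and input, against 0.574 and 1.56 FPKM in the vehicle IP and input. The fibroblast collagen COL1A1 lay between 1.31 and 2.18 FPKM, and the leukocyte gene PTPRC had at most 4 reads in a library. The marker list had 9 symbols, of which 6 were in the table.

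PSAT1 and MTHFD2 were the most abundant members in both inputs. PSAT1 had 18.2 FPKM in the lactate input, against 34.4 FPKM in the vehicle input, and 4.12 FPKM in the lactate IP, against 10.3 FPKM in the vehicle IP. MTHFD2 had 15.2 FPKM in the lactate input, against 25.8 FPKM in the vehicle input, and 3.45 FPKM in the lactate IP, against 6.79 FPKM in the vehicle IP. Both genes were lower in IP than in input, and on the deposited scale lower in lactate than in vehicle cells. PSPH, the last enzyme of serine synthesis, had 2.79 FPKM in the lactate input, against 7.07 FPKM in the vehicle input. In the IPs it had 1.86 FPKM with lactate, against 2.68 FPKM with vehicle.

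PHGDH, the first enzyme of serine synthesis, was the reverse in its order of IP and input. It had 3.91 FPKM in the lactate IP and 0.760 FPKM in the lactate input, against 9.39 FPKM in the vehicle IP and 1.47 FPKM in the vehicle input. SHMT2 had 3.08 and 1.73 FPKM in the lactate IP and input, against 8.68 and 2.17 FPKM in the vehicle IP and input. SHMT2 is the mitochondrial entry to one-carbon metabolism, and its levels in the inputs were closer together than in the IPs. MTHFD1L had 1.66 and 0.732 FPKM in the lactate IP and input, against 3.81 and 1.86 FPKM in the vehicle pair. MTHFD1 had 0.649 and 0.335 FPKM in the lactate pair, against 1.502 and 0.660 FPKM in the vehicle pair. All of these were higher in IP than in input in both conditions.

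SHMT1 was low throughout, with 0.188 and 0.191 FPKM in the lactate IP and input, against 0.272 and 0.259 FPKM in the vehicle IP and input (20, 15, 26 and 32 reads). ASNS was nearly without reads in the gene table, with 2 and 1 in the lactate IP and input, against 1 and 8 in the vehicle IP and input. These counts are too few for a ratio, and the peak windows at ASNS, below, held many more reads.

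**Figure D1:**
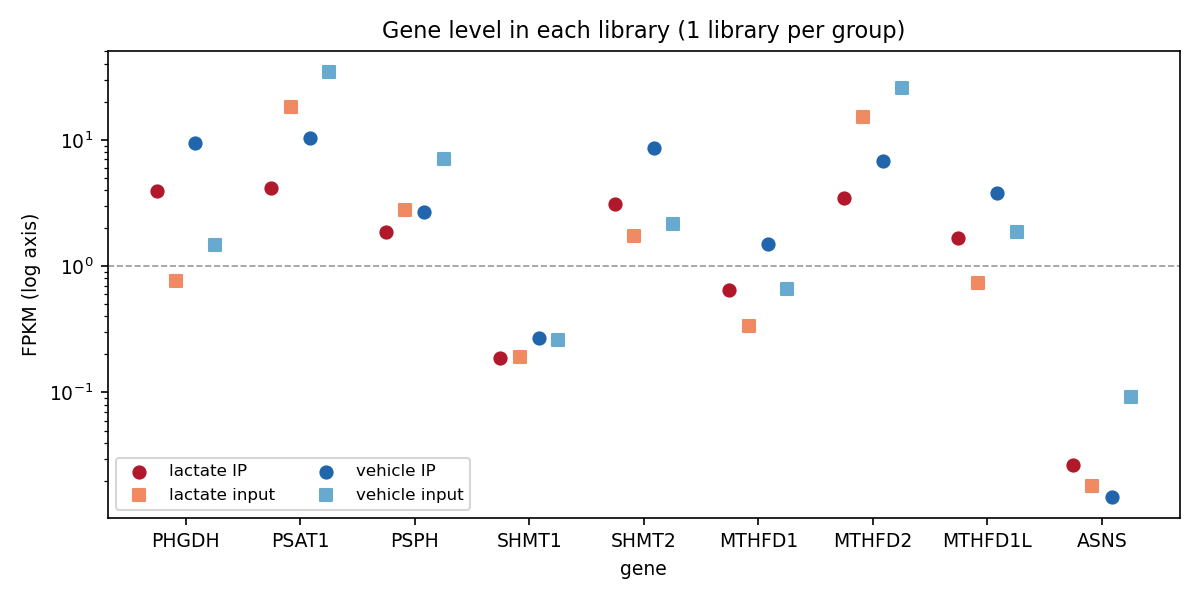
FPKM of each of the 9 genes (log axis) in the lactate IP, lactate input, vehicle IP and vehicle input, 1 point per library, with a dashed line at 1 FPKM. PSAT1 and MTHFD2 stand highest in the inputs (15.2 to 34.4 FPKM), PHGDH and SHMT2 stand higher in the IPs than in the inputs, and ASNS lies under 0.1 FPKM in every library.

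The order of the members therefore differed between input and IP. In the vehicle input it ran PSAT1, MTHFD2, PSPH, SHMT2, MTHFD1L, PHGDH, MTHFD1, SHMT1 and ASNS, and the counting intervals of SHMT2 and MTHFD1L could not order that pair. In the vehicle IP, PSAT1, PHGDH and SHMT2 led, and neither neighbouring pair among them was ordered beyond counting error. In the lactate IP, PSAT1 and PHGDH were likewise not ordered, nor were MTHFD2 and SHMT2, or PSPH and MTHFD1L. In the lactate input, PHGDH and MTHFD1L were not ordered, nor were MTHFD1 and SHMT1. Together PSAT1, MTHFD2 and PSPH made up 49.8% of the summed FPKM of the members in the lactate IP and 90.6% in the lactate input, against 45.5% in the vehicle IP and 91.2% in the vehicle input. This grouping was chosen after the values were seen.

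IP over input in lactate cells separated the members in both directions. Ratios are log2 of FPKM + 1, which understates the change of low genes, with the ratio without a pseudocount and its interval after it. PHGDH was at 1.48 (2.36, 95% interval 2.02 to 2.73). MTHFD1L was at 0.62 (1.18, 0.65 to 1.73) and SHMT2 at 0.58 (0.83, 0.47 to 1.20). PSPH was at -0.41 (-0.58, -1.04 to -0.12), and not below 0 when scaled to nuclear reads. The mitochondrial dehydrogenase and the aminotransferase were at the low end. MTHFD2 was at -1.86 (-2.14, -2.27 to -2.01) and PSAT1 at -1.91 (-2.14, -2.43 to -1.87). Genes with at least 1 FPKM in a compared library entered a comparison, and those at least 2-fold apart were counted. PHGDH and MTHFD1L reached 1 FPKM in the lactate IP but not in the lactate input, so their direction was set by this filter. Of the 6 members that entered, 1 was counted higher in the IP and 2 lower, beside 16.0% and 23.3% of all genes. The median over all genes was -0.10.

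In vehicle cells the same genes lay at the ends. PHGDH was at 2.07 (2.68, 2.47 to 2.88) and SHMT2 at 1.61 (1.997, 1.75 to 2.25). MTHFD1L was at 0.75 (1.04, 0.75 to 1.33) and MTHFD1 at 0.59 (1.19, 0.93 to 1.44). MTHFD1 reached 1 FPKM in the vehicle IP but not in the vehicle input, so its direction was set by the filter. PSPH was at -1.13 (-1.40, -1.73 to -1.07), PSAT1 at -1.65 (-1.74, -1.92 to -1.56) and MTHFD2 at -1.78 (-1.93, -2.02 to -1.83). Of 7 members that entered, 2 were counted higher in the IP and 3 lower, beside 27.6% and 15.3% of all genes, with a median over all genes of 0.44. The lactate and vehicle enrichments come from separate libraries. Among protein-coding genes that entered, those with recovered lengths up to 3099 bp had a median of 0.31 in vehicle cells and those above 7628 bp a median of 0.53. The recovered length was 2206 bp for PSAT1 and 2762 bp for PSPH, but 11443 bp for MTHFD2. The part of length in the order of the members was not tested.

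**Figure D2:**
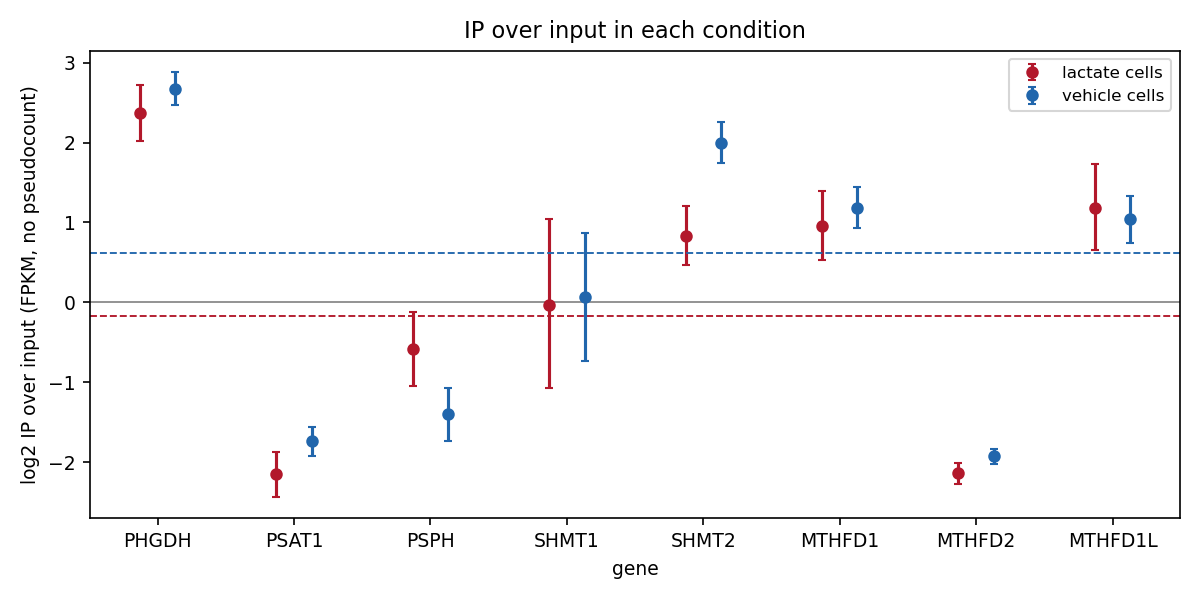
Log2 IP over input (FPKM, no pseudocount) for 8 genes in lactate cells and in vehicle cells, with 95% counting intervals, dashed lines at the median of all genes in each condition and a grey line at 0. PHGDH is highest and PSAT1 and MTHFD2 are lowest in both conditions, and SHMT2 and PSPH are the genes whose intervals for the conditions do not overlap.

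When the vehicle enrichment was subtracted from the lactate enrichment, the difference was lowest for SHMT2, at -1.03 (-1.17 without a pseudocount, -1.60 to -0.74), and highest for PSPH, at 0.73 (0.81, 0.27 to 1.36). PHGDH was at -0.59, MTHFD1 at -0.29, PSAT1 at -0.26, MTHFD1L at -0.14 and MTHFD2 at -0.08. Without a pseudocount MTHFD1L was above 0, at 0.14 (-0.45 to 0.73), and with a pseudocount of 5 PSAT1 and MTHFD2 were, at 0.015 and 0.13. The median over all genes was -0.36. SHMT2 lay at the 8.85th percentile of all genes and PSPH at the 95.4th. Of 7 members that entered, 0 were counted higher and 1 lower, beside 3.04% and 9.56% of all genes. With libraries rescaled by the median ratio over nuclear genes, SHMT2 was at -0.49 and no longer counted, PSPH was at 1.02 and counted, and the other 5 members changed sign, lying between 0.06 (PHGDH) and 0.34 (MTHFD1L). PSPHP1, an unprocessed pseudogene of PSPH that could share its reads, had 7 and 3 reads in the lactate IP and input, against 8 and 14 in the vehicle IP and input.

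Between the inputs, all 6 members that entered were lower with lactate on the deposited scale, as was the median gene at -0.43, but SHMT2 was at 0.18 after rescaling by the median ratio over nuclear genes. PHGDH and MTHFD1L reached 1 FPKM in the vehicle input but not in the lactate input, so their direction was set by the filter. PSPH was at -1.09 (-1.34 without a pseudocount, -1.70 to -0.998), PSAT1 at -0.88 (-0.92, -1.08 to -0.76) and MTHFD2 at -0.73 (-0.76, -0.84 to -0.69). MTHFD1L was at -0.72 (-1.34, -1.88 to -0.83), PHGDH at -0.49 (-0.95, -1.34 to -0.58) and SHMT2 at -0.22 (-0.33, -0.71 to 0.05). Of these 6, 0 were counted higher and 1, PSPH, lower, beside 1.76% and 6.46% of all genes. Relative to the median gene, 1 member was above and 5 were below, and no member was 2-fold away from it. PSPH was at -0.61 after that rescaling and no longer counted. In bulk RNA, fewer cells expressing a gene and less of its RNA per expressing cell cannot be told apart.

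Between the IPs, the 7 members that entered were lower with lactate on the deposited scale, and the median gene was at -0.74, but PSPH was at 0.41 and MTHFD2 at 0.12 after rescaling by the median ratio over nuclear genes. MTHFD1 reached 1 FPKM in the vehicle IP but not in the lactate IP, so its direction was set by the filter. SHMT2 was at -1.25, PSAT1 at -1.14, PHGDH at -1.08, MTHFD1L at -0.86, MTHFD2 at -0.81, MTHFD1 at -0.60 and PSPH at -0.37. Of these, 0 were counted higher and 3 lower, beside 1.64% and 27.7% of all genes. After that rescaling 0 members were counted lower, beside 227 of 8366 genes. This comparison shares its libraries with both enrichments, so its values are not a further reading of them.

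**Figure D3:**
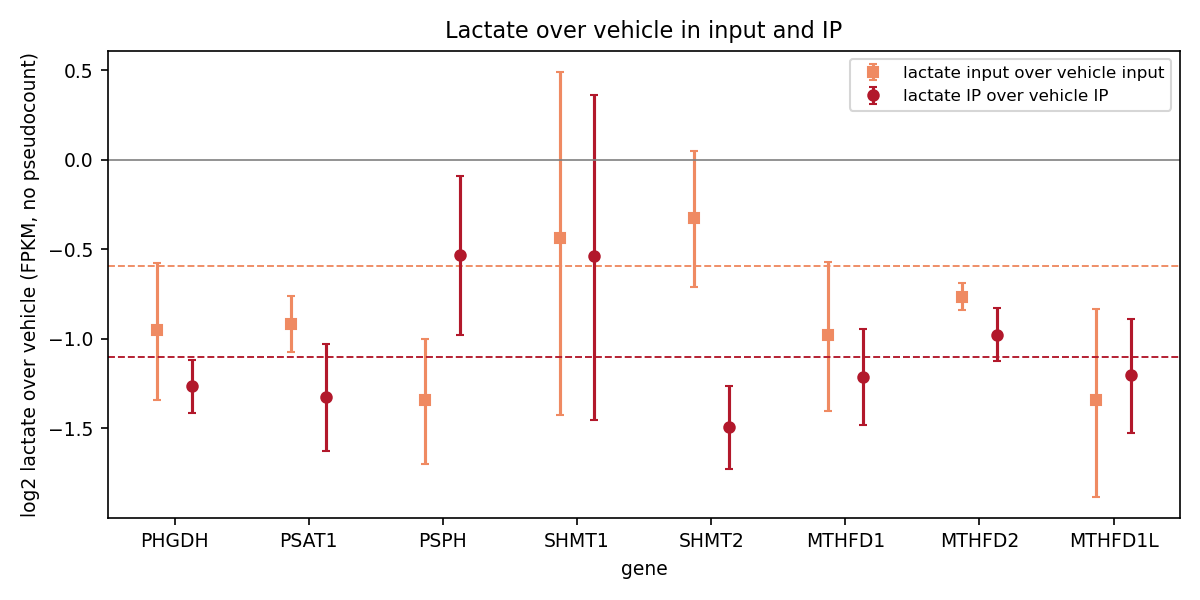
Log2 lactate over vehicle (FPKM, no pseudocount) for 8 genes in input and in IP, with 95% counting intervals, dashed lines at the median of all genes in each comparison and a grey line at 0. All points lie below 0 on the deposited scale, where rescaling turns SHMT2 and SHMT1 in input and PSPH, MTHFD2 and SHMT1 in IP above 0, and PSPH lies below its dashed line in input and above its dashed line in IP.

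In the wider pathway, a list of 58 symbols of which 55 were in the table, IP over input in lactate cells placed 5 of 30 genes at least 2-fold higher and 10 lower. In vehicle cells 9 of 35 were higher and 7 lower. Over all genes the shares were 16.0% higher and 23.3% lower with lactate, and 27.6% higher and 15.3% lower with vehicle. The list's medians were -0.18 with lactate and 0.21 with vehicle, beside -0.10 and 0.44 over all genes. SARS1, the seryl-tRNA synthetase, had 9.24 and 2.91 FPKM in the lactate IP and input, against 27.4 and 5.82 FPKM in the vehicle IP and input. AHCY, which clears S-adenosylhomocysteine in the methionine cycle, had 4.33 and 1.36 FPKM in the lactate pair, against 14.4 and 2.14 FPKM in the vehicle pair. SLC38A2, a neutral amino acid transporter, went the other way, with 6.18 and 39.0 FPKM in the lactate pair, against 11.7 and 64.8 FPKM in the vehicle pair. Between the inputs 0 of 27 were higher and 1 lower, SLC1A5, a glutamine and neutral amino acid transporter, with 4.35 FPKM with lactate, against 10.5 FPKM with vehicle. Over all genes 1.76% were higher and 6.46% lower. In the difference of enrichments 0 of 35 were higher and 2 lower, NARS1, the asparaginyl-tRNA synthetase, at -1.14, and AHCY at -1.11, beside 3.04% higher and 9.56% lower over all genes.

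Among 18 regulators of the ATF4 and stress response, all in the table, 5 of 15 were at least 2-fold higher in IP than in input in lactate cells and 1 was lower, and in vehicle cells 4 of 16 were higher and 1 lower. The shares over all genes were those just given, 16.0% and 23.3% with lactate and 27.6% and 15.3% with vehicle. The regulators' medians were 0.40 with lactate and 0.26 with vehicle, beside -0.10 and 0.44 over all genes. TRIB3, a pseudokinase induced by ATF4, had 14.2 and 2.61 FPKM in the lactate IP and input, against 42.0 and 6.19 FPKM in the vehicle IP and input. CEBPG, a bZIP partner of ATF4, was the lower one in both conditions, at -1.96 with lactate and -1.37 with vehicle. ATF4 itself had 115 and 124 FPKM in the lactate IP and input, against 289 and 214 FPKM in the vehicle IP and input. Between the inputs 0 of 15 regulators were higher and 1 lower, DDIT3, a stress-induced transcription factor, with 2.05 FPKM with lactate, against 5.86 FPKM with vehicle, beside 1.76% and 6.46% of all genes. The genes whose 4-library pattern was nearest to a member's, among 3390 protein-coding genes with at least 1 FPKM in every library, were RPS7 for PSAT1, ATP5MC1 for PSPH and CCDC47 for MTHFD2. Their Euclidean distances on centred log2(FPKM + 1) were 0.126, 0.153 and 0.0326.

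Peaks were compared next, as stretches where an IP exceeded its own input. Peak folds and q values here were computed by the authors. Of the 48104 peaks in the authors' deposited lactate list, 52 were at 8 of the members, and of the 95785 in the vehicle list, 102 were at all 9. At q of at most 0.01, 7 members had a peak in lactate cells and 8 in vehicle cells. Among protein-coding genes with at least 1 FPKM in the IP, 68.9% had one in the lactate list and 84.5% in the vehicle list. Of the members with that level, 5 of 6 had one with lactate and 7 of 7 with vehicle. MTHFD1L, whose gene spans 236186 bp, held 29 of the 52 lactate peaks and 61 of the 102 vehicle peaks. PSAT1 had 0 peaks in lactate cells and 6 in vehicle cells, of which 1 had q of at most 0.01. Of the 52 lactate peaks, 30 overlapped a vehicle peak of the members by at least 1 base (57.7%), which is 29.4% of the vehicle peaks. Over all peaks, 56.4% of the lactate list and 27.8% of the vehicle list overlapped a peak of the other list.

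Ranked by q, the strongest peaks of PHGDH, SHMT2 and MTHFD1 lay at the 3′ end of the gene in both lists, and those of MTHFD2 and ASNS did in the vehicle list. Ranked by fold, the authors' deposited lists put the highest MTHFD1 peak in an intron in both. It had 3.24-fold with lactate (authors' q of 0.979) and 8.11-fold with vehicle (authors' q of 4.22e-17). The authors' deposited vehicle list put the highest MTHFD2 and ASNS peaks in exons (3.03-fold and q of 0.14 each). Of these peaks by fold, only that of MTHFD1 with vehicle had q of at most 0.01. For PHGDH the authors' deposited lists gave chr1:119743803-119744322 in lactate cells, with a 7.85-fold enrichment, -log10 q of 92.3 and a summit 103 bp from the RefSeq gene end. In vehicle cells they gave chr1:119743822-119744317, with 7.93-fold, -log10 q of 287 and a summit 133 bp from the end. These ranked 223rd of 48104 and 202nd of 95785 by q. For SHMT2 the authors' deposited lists gave chr12:57234398-57234623 in lactate cells (1.80-fold, -log10 q of 2.87), against chr12:57234081-57234828 in vehicle cells (6.26-fold, 106). Among protein-coding genes with a peak at q of at most 0.01, the strongest by q lay within 1000 bp of the gene end in 31.92% of genes in the lactate list and 33.93% in the vehicle list. MTHFD1L and PSPH had their strongest peaks by q in introns in both lists. In the lactate list MTHFD2 and ASNS did too, with summits 18031 and 9488 bp from the gene end. For MTHFD1L the authors' deposited lists gave chr6:151003515-151004098 in lactate cells (22.4-fold, -log10 q of 50.4), against chr6:151003604-151003985 in vehicle cells (17.8-fold, 41.7). For PSPH they gave chr7:56048784-56049064 in lactate cells (5.54-fold, 8.36), against chr7:56048763-56049212 in vehicle cells (13.8-fold, 24.3). PSAT1 had its strongest peak by q over the gene start, in the vehicle list, at chr9:78297013-78297326 (6.05-fold, 6.03), with its summit 28 bp after the RefSeq start. It is the peak whose bases are in capitals above. It rests on few reads, with 12 recovered there in the vehicle IP and 0 in the lactate IP.

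**Figure D4:**
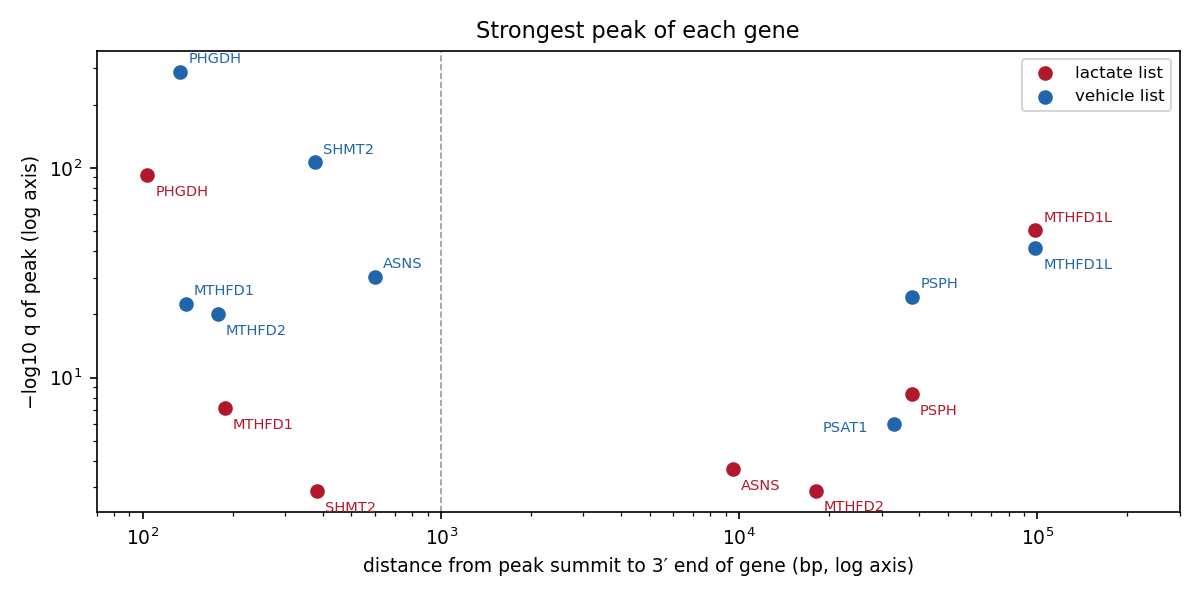
-log10 q of the strongest peak by q of each gene at q of at most 0.01 (log axis) against the distance from its summit to the 3′ end of the gene (bp, log axis), for the lactate and vehicle lists, with a dashed line at 1000 bp. PHGDH, SHMT2 and MTHFD1 lie left of the line in both lists, and MTHFD1L, PSPH and PSAT1 lie right of it. MTHFD2 and ASNS lie left of it in the vehicle list and right of it in the lactate list.

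The authors' deposited comparison of the IPs gave M, a log2 ratio of lactate IP over vehicle IP density at each peak after its own scaling, and 124 of its 116484 windows were at the members. The median M was -0.57 at the members and -0.50 over all windows. At the members 15 windows had M of at least 1 and 46 of at most -1, or 12.1% and 37.1%, beside 13.92% and 38.56% of all windows. Intervals below come from the reads recovered behind M. At the 3′ end of PHGDH, M was -0.03 (-0.23 to 0.16), with 320 reads in the lactate IP, against 715 in the vehicle IP. At SHMT2 it was -0.45 (-0.74 to -0.17), with 140 reads against 370, and at the 3′ UTR of MTHFD2 it was -0.60, with 86 against 234. At the strongest MTHFD1L intron peak it was 0.91 (0.43 to 1.39), with 82 reads in the lactate IP, against 70 in the vehicle IP. The 3′ UTR of the same gene had -1.17 (-2.10 to -0.42), with 17 reads against 55. Among MTHFD1L intron windows with at least 40 reads, 7 were above 0 and 5 below. Over all protein-coding genes, windows with that many reads had a median M of 0.04 at 5561 intron peaks and -0.24 at 12967 exon and UTR peaks. Of these windows, 52.56% at intron peaks and 34.4% at exon and UTR peaks were above 0. The reads behind M appear to be counted over a stretch wider than the named peak. The MTHFD1L peaks chr6:150976491-150976757 and chr6:150977136-150977549 do not overlap, but both had 4 reads in the lactate IP and 30 in the vehicle IP. Windows of neighbouring peaks can therefore share reads, so they are not separate measurements.

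**Figure D5:**
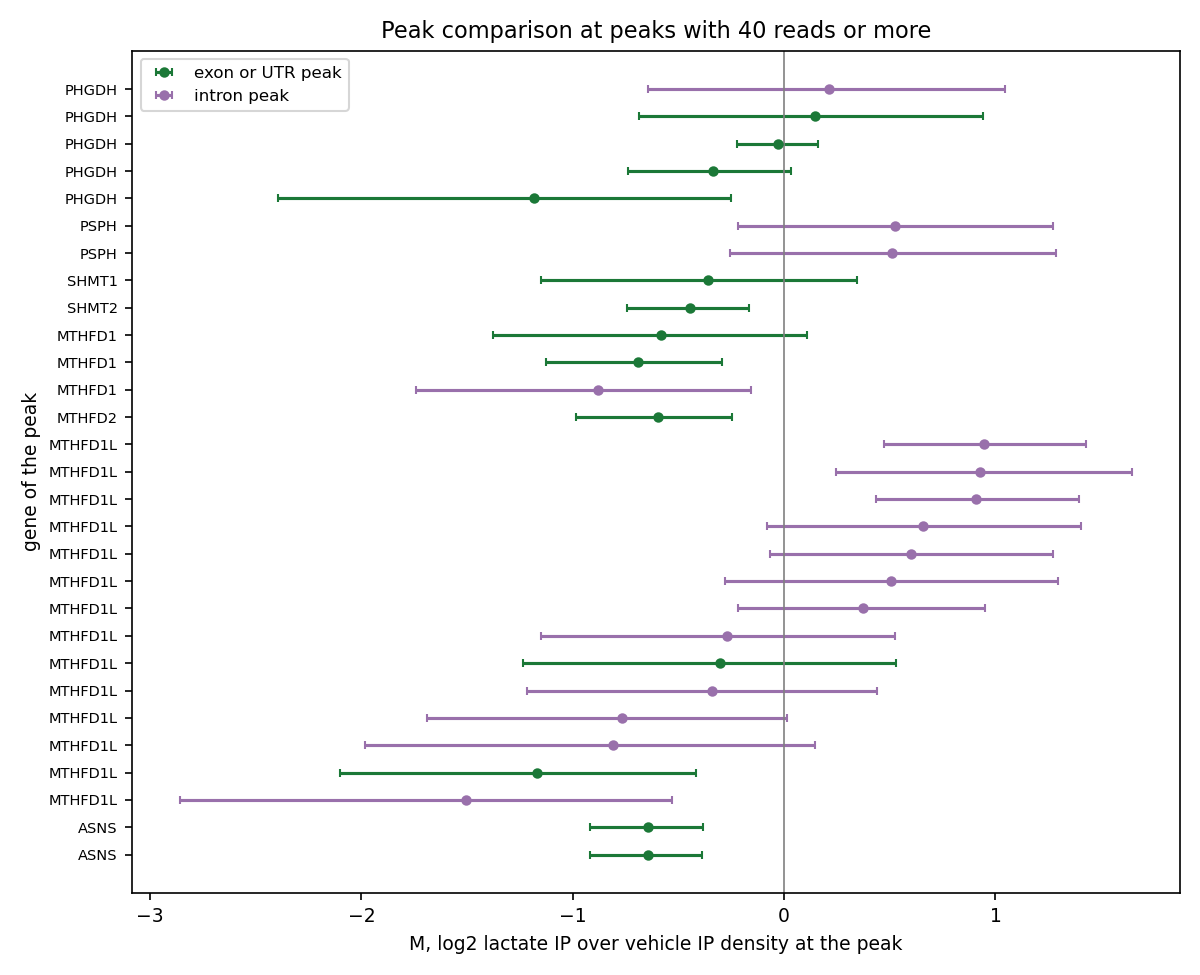
M, the authors' log2 lactate IP over vehicle IP density, with 95% counting intervals, at the members' peaks with 40 reads or more, coloured by exon or UTR and intron. The 3′ end of PHGDH is at -0.03, the SHMT2, MTHFD2 and ASNS exon or UTR windows lie below 0, and MTHFD1L intron windows lie on both sides.

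At ASNS and SHMT1 the window at a 3′ UTR peak held more IP reads than the gene table gave to the whole gene. Such a window can reach beyond its peak, so these reads need not all lie in the 3′ UTR. The SHMT1 window had 25 reads in the lactate IP, against 46 in the vehicle IP, and the table held 20 and 26. Only the authors' deposited vehicle list held that SHMT1 peak, at 2.84-fold and q of 0.14. For ASNS the difference was larger. Its 3′ UTR peak used here was likewise in the authors' deposited vehicle list only, at 1.58-fold and q of 0.11. The window at this ASNS peak, chr7:97852938-97853366, had 158 reads in the lactate IP, against 496 in the vehicle IP. The gene table held 2 and 1 reads for the whole gene in these libraries. M at that window was -0.64 (-0.92 to -0.39). Protein-coding genes were then taken by their strongest exon or UTR peak at q of at most 0.01, where its window had at least 100 reads. Of these, 3.451% in the lactate list and 3.485% in the vehicle list had at least 10 times as many in the window as in the table. Neither the ASNS peak nor the SHMT1 peak above meets that q. RefSeq also places a lncRNA gene, CZ1P-ASNS, at chr7:97852117-97972358, over ASNS at chr7:97851677-97928441. The sources used here do not say how reads matching both were counted, and the part of this overlap was not tested. The FPKM of ASNS, and its last place in the order of levels, are therefore as listed in the gene table.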

How the data were processed

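Values came from 4 libraries of PANC-1 cells, 1 per group. The 9 members and the gene lists were chosen with earlier results of these data known. Per the submitters' processing notes, the build was GRCh38 and tools included MACS2 2.2.7.1, HISAT2 2.1.0, HOMER 4.11.1, fastp 0.20.1, DiffBind and bedtools 2.29.2. No source used here names the gene counter or its strand setting. Gene levels were deposited in FPKM. Per the file headers, the authors also deposited peaks with a fold enrichment ratio, q-value, p-value and −log10 of each, and a comparison of the IPs with a normalized density signal, log2 M and A, and a column headed P, used here as no more than a score and not reported.

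From these, log2 ratios of FPKM + 1 were computed for genes with at least 1 FPKM in a compared library, and at least 2-fold was counted. Whole reads behind FPKM were recovered from the library totals and gene lengths, and 99.99% of 72387 values above 0 were whole (tolerance 1e-06 reads). Where a gene's reads in all libraries have a shared factor, it is lost, and its reads and length are understated. In simulated tables of 24482 genes the totals came out right in 24 of 24 cases, and in tables of 4000 genes in 18 of 24, the others being too small by a factor of 2. The share of even read counts, which a wrong factor in 1 library would move, was between 42.2% and 43.5% in the real libraries. Intervals are exact conditional binomial, at 95%, except for the difference of enrichments. Its 95% intervals are normal approximations from the reads in the 4 libraries. A count of 0 allows up to 3 reads. Reads behind M were recovered with a line in A, and at windows under 200 reads all came out whole within 0.02. Named genes were all members, the 4 highest and 4 lowest of each list per comparison and any past 2-fold, of which examples are given and some are not reported here. Python 3.11.15, numpy 2.4.6, pandas 2.3.3, scipy 1.17.1 and matplotlib 3.10.9 were used. Alternatives were other pseudocounts, no filter, 2 rescalings, and stricter peak settings.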

Additional observations from a re-analysis of the deposited data

How the results depend on the processing

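No paired analysis was possible because each group had 1 library, and for the same reason no library could be left out. Removing the filter on low values moved none of the counts of members past 2-fold. With a pseudocount of 0.1, 2 members were lower with lactate in input (1 as reported), 5 lower in IP (3 as reported), 2 higher in IP than in input in lactate cells (1 as reported) and 4 in vehicle cells (2 as reported). Over all genes that setting counted 1134 of 6766 lower in input and 4552 of 8366 lower in IP. It counted 2031 of 7170 genes higher in IP than in input in lactate cells and 3786 of 9099 in vehicle cells. With a pseudocount of 5 the members' counts were 0, 0, 0 and 1 in the same order, and the difference of enrichments had 0 lower (1 as reported). Over all genes they were 67 of 6766, 502 of 8366, 110 of 7170 and 556 of 9099, and 99 of 9445 in the difference. Rescaling by the median ratio over nuclear genes, or to nuclear reads, left 0 members lower with lactate in input and 0 in IP, and gave 1 member higher and 0 lower in the difference of enrichments. Over all genes the median ratio left 129 of 6766 lower in input and 227 of 8366 in IP, and nuclear reads left 111 and 267. Of 9445 genes in the difference, 422 were higher and 354 lower with the median ratio, and 430 and 367 with nuclear reads. With nuclear reads, 3 members were higher in IP than in input in lactate cells, beside 2282 of 7170 genes. At q of at most 0.01, 23 lactate and 49 vehicle member peaks remained of 52 and 102. Over all peaks 17075 of 48104 and 38627 of 95785 remained. With an overlap of at least 0.5 of each peak 19 member peaks were shared in place of 30. At member windows with A of at least its median, 9 had M of at least 1 and 15 of at most -1, in place of 15 and 46. These were 12.33% and 20.55%, beside 9.999% and 20.38% of all windows with such A. After subtracting the median M, 31 had M of at least 1 and 33 of at most -1 (25% and 26.61%, beside 21.99% and 28.35% of all windows). No called value changed sign. In the difference of enrichments MTHFD1L was at 0.077 with a pseudocount of 0.1, and PSAT1 and MTHFD2 at 0.015 and 0.13 with 5. Among uncalled members, rescaling by the median ratio turned SHMT2 in input to 0.18, PSPH and MTHFD2 between the IPs to 0.41 and 0.12, and 5 members in the difference of enrichments to values between 0.06 and 0.34. Scaling to nuclear reads turned the same ones and put PSPH at 0.0046 for IP over input in lactate cells. Depth limits SHMT1, with at most 32 reads in a library of the gene table. ASNS had at most 8 there, and why it had so few was not tested.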
